A study of Mus musculus with 6 samples.

Results

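The connexin gap junction genes described here are Gja1, Gja4, Gja5, Gjb1, Gjb2, Gjc1 and Gjc3, 7 of the 23462 genes named on a whole-genome expression array of mouse colon. The family was chosen by the signal of a Gja1 probe that was not well above background in knockout colon. All 11 probes carrying the RefSeq accessions of the 7 genes were followed, out of 56605 probes. The array held colon RNA of 6 male mice, 1 array per animal: 3 labelled control and 3 labelled Islr knockout, a deletion of a gene for a secreted leucine-rich repeat protein. The sample source gives the same colitis course for both groups, 3.5% dextran sulfate sodium (DSS, a polysaccharide that injures the colonic lining) in the water for 5 days and then 1 day of recovery. The labels' separate treatment field says there was no treatment. Neither the knockout allele, nor any Cre driver, nor the age and strain of the animals is given in the sources used here, and the series text speaks of flow separation into TRIzol without naming a sorted cell population.

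Connexins are membrane proteins that assemble into rings, and rings of adjoining cells dock to form channels through which ions and small metabolites pass. Different cells use different connexins. Gja1 is the widespread connexin of fibroblasts, smooth muscle and many other cells, Gja4 and Gja5 join endothelial cells of arteries, Gjc1 occurs in vascular and gut muscle, Gjc3 in glia, and Gjb1 and Gjb2 in epithelia such as liver and gut. During mucosal repair, gap junctions are known to couple cells of an epithelial sheet and cells of the vessel wall.

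The files give no probe sequences, so the sequences shown are the 250 bases before the annotated transcription start, from RefSeq on build GRCm38.p6, which held 6 of the 7 genes. They are printed for Gja1, the gene that chose the set, for Gja4 and Gja5, which lay lower with it, and for Gjb2, which lay higher and like them has a single listed start. Capitals mark matches on either strand to 4 motifs: AP-1 (TGANTCA), Sp1 (GGGCGG), TEAD (GGAATG) and the TATA box (TATAAA). No matches overlap in these windows.
Gja1, chr10:56377050-56377299, plus strand: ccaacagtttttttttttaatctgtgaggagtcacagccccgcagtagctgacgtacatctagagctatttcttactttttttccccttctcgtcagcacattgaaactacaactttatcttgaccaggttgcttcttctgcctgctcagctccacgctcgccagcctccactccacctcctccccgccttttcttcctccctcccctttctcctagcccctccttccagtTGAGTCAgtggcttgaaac
Gja4, chr4:127314040-127314289, minus strand: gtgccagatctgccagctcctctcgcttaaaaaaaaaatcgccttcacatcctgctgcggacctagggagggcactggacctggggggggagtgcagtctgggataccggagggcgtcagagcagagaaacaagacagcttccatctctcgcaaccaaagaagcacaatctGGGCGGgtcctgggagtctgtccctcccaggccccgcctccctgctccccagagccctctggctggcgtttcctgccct
Gja5, chr3:97032152-97032401, plus strand: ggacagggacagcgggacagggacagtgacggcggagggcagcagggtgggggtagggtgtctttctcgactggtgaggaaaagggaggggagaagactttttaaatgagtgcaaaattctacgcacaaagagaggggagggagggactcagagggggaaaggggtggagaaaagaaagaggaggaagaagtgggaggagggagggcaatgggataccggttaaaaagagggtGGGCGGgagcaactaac
Gjb2, chr14:57104703-57104952, minus strand: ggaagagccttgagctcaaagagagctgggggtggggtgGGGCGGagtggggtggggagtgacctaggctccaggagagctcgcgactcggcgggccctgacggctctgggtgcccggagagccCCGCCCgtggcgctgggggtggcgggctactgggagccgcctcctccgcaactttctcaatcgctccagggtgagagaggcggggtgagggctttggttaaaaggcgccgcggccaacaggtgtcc
The Gja1 window held an AP-1 match, TGAGTCA, that begins 19 bases before the start, and none of the other 3 motifs. An AP-1 match was present in 6.75% of the 32851 promoter windows of the same length. Each of the Gja4 and Gja5 windows held 1 Sp1 match, beginning 79 and 17 bases before the start, and the Gjb2 window held 2. Sp1 matches were present in 32.7% of all windows, TEAD matches in 12.6% and TATA boxes in 12.4%. No TEAD match, the motif of the factors that work with YAP, lay in the 4 windows shown. Gjb1 has 4 listed starts, and 1 of its windows held a TEAD match, beginning 226 bases before the start, while another held 3 Sp1 matches and a TATA box. These matches describe letters and not sites in use.

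Between 69.4% and 75.4% of the spots of an array were well above background, and 3.26% to 16% were marked by the scanner software as outlier spots and treated as missing. Levels are given as log2 of the signal relative to the 75th percentile of the array, so 0 is that percentile. The Islr probe had a level of 1.23 ± 0.018 in controls (SD, n = 2, with 1 outlier spot) and of -1.21 ± 0.25 in knockouts (SD, n = 3), a difference of -2.44 (SE 0.21, limma adjusted p = 0.0171). That call was lost without knockout replicate 3 (limma adjusted p = 0.0580), and the probe could not be fitted without control replicate 2 or 3. Its signal was well above background on all 3 knockout arrays. The 10 colon epithelium markers, 9 fibroblast markers, 10 endothelial markers and 10 smooth muscle markers were all well above background on all 6 arrays, so signals of all 4 cell types were present. In such bulk tissue, fewer cells of a type and less RNA per cell cannot be told apart. Controls occupied 1 row of the slide and knockouts the other, so slide row and genotype cannot be told apart either.

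Of the 11 connexin probes, 9 could be tested. Counted over all 11, 8 gave signals well above background throughout, among them an untested Gja1 probe. In knockout colon 7 of the 9 tested probes lay lower and 2 higher. Among the lower ones, Gja1 A_55_P2800487 and Gja5 A_55_P2717381 passed the filter on dim probes through the controls alone. They were well above background on 0 and 1 knockout arrays, and a filter passed in this way favours a lower knockout signal. Gja1 and Gja5 are also counted with more than 1 probe each. Taking for each gene its brightest tested probe, the vascular, stromal and glial connexins Gja1, Gja4, Gja5, Gjc1 and Gjc3 lay lower, by 0.57 to 1.57 on the log2 scale, and the epithelial connexins Gjb1 and Gjb2 lay higher, by 2.44 and 1.26. The median over the 7 genes was -0.61, beside 0.014 over the 16451 named genes tested. In limma, with the false discovery rate held at 5%, 1 of the 9 probes was called, against 3.97% of the 35351 probes tested. That probe was lower, as were 2.42% of all probes, and 0 were called higher, beside 1.55% of all probes. The groups did not overlap at 5 of the 8 tested probes with usable spots on all arrays, against 34.5% of 30240 such probes. At 4 of the 5 the knockouts lay lower, beside 18% of all probes, and at 1 higher, beside 16.5%. The contrast of knockout against control is the one from which these genes were chosen, so nothing is read from these counts and no p-value is given for the 7 genes. With array quality weights 6 of the 9 probes passed, and 26.3% of all probes did. The count over all probes varied with the array left out. Leaving out knockout replicate 3 gave 40 calls, and leaving out knockout replicate 1 gave 263. For control replicates 2 and 3 the numbers were 71 and 90, for control replicate 1 there were 2114, and for knockout replicate 2 there were 1150.

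**Figure D1:**
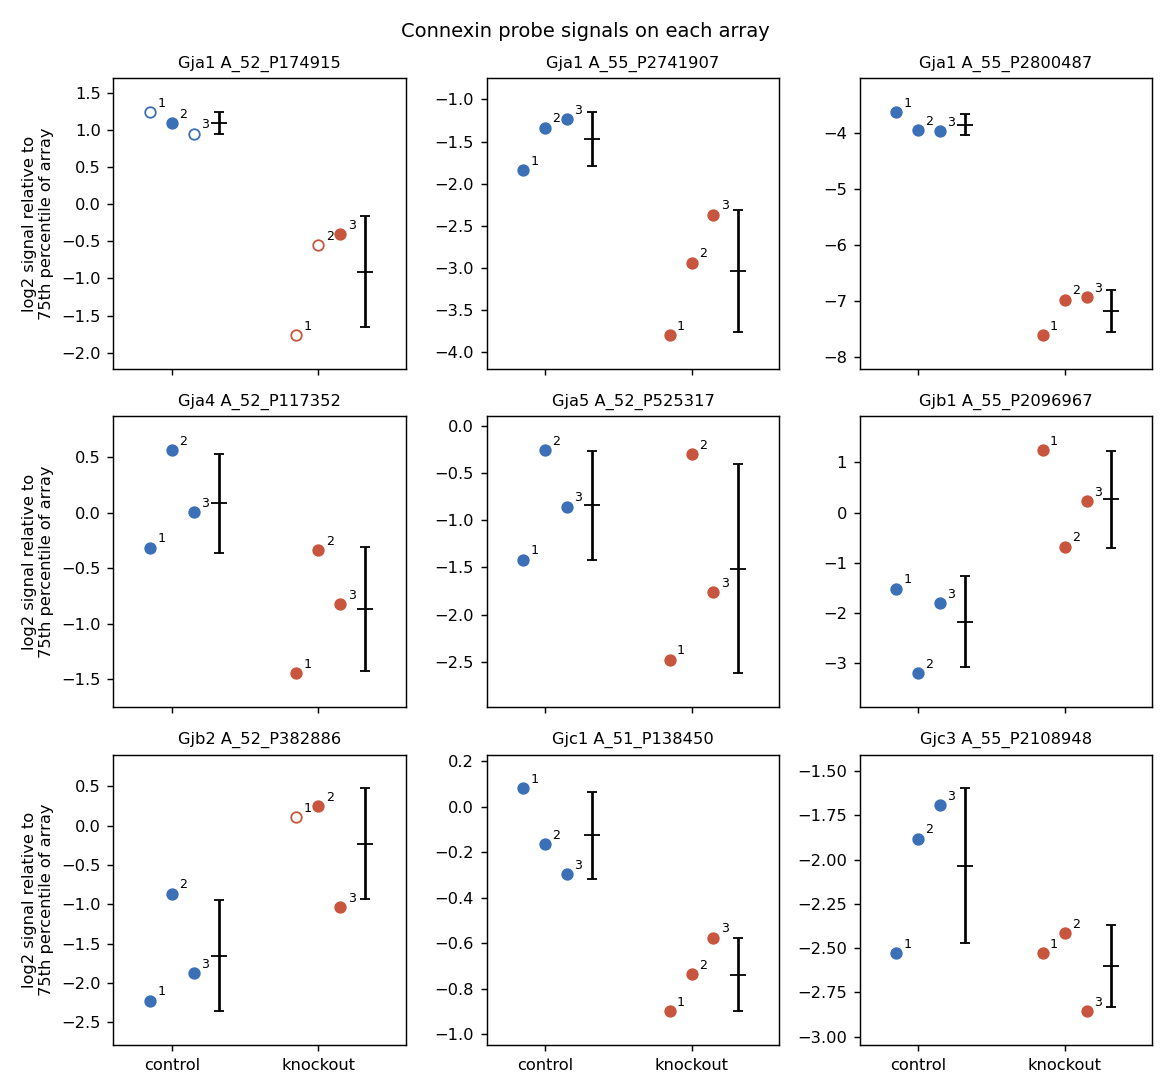
Levels of 9 connexin probes on each array, as log2 of the signal over the 75th percentile of its array (vertical axis, scaled separately in each panel), in 3 controls and 3 knockouts numbered by replicate. Open circles are outlier spots, black bars show mean and SD over all 3 arrays, and the 3 Gja1 panels have all knockouts below all controls.

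Gja1 had 3 probes, all lower in the knockout, with no overlap between the groups at any of them when outlier spots were kept. The dimmest, A_55_P2800487, is the probe that led to the choice of these genes. Its processed signals were 515, 458 and 418 intensity units in control replicates 1 to 3 and 25.0, 46.1 and 47.1 in knockout replicates 1 to 3. It was well above background on all control arrays and on no knockout array, so only a bound can be given for the fold: the signal was at least 3.14-fold lower in knockouts. The bound sets the control mean against the dimmest signal that each knockout array still measured above background. The fitted difference was -3.33 (SE 0.23), which rests on knockout signals that are not well above background, and it was -1.62 under normexp background correction with quantile normalization.

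The other Gja1 probes measured a signal well above background on all 6 arrays. Probe A_55_P2741907 had levels of -1.84, -1.34 and -1.24 in controls and of -3.80, -2.94 and -2.37 in knockouts. The difference was -1.57 (SE 0.38), a 2.96-fold lower signal, and knockout replicate 1 lay lowest. The brightest probe, A_52_P174915, could not be tested because 4 of its 6 spots were outlier spots. With these kept, its signals were 15087, 15154 and 12670 in controls and 1443, 3979 and 4367 in knockouts. That is a difference of -2.0 on the log2 scale between means of 1.1 ± 0.15 and -0.91 ± 0.75 (SD, n = 3 each), or 4.01-fold. Knockout replicate 1 was lowest at both of these probes.

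Gja4 and Gja5 encode the connexins through which arterial endothelial cells are coupled. Gja4 (A_52_P117352) had levels of -0.32, 0.56 and 0.0021 in controls and of -1.45, -0.34 and -0.82 in knockouts. The difference was -0.95 (SE 0.35), 1.93-fold, and the groups stood apart by only the small step between control replicate 1 and knockout replicate 2. Gja5 (A_52_P525317) had levels of -1.42, -0.25 and -0.86 in controls and of -2.48, -0.30 and -1.76 in knockouts. Here the groups overlapped, since knockout replicate 2 lay above control replicates 1 and 3. The difference of -0.67 (SE 0.58) was close to its error, and it came to -0.19 when knockout replicate 1 was left out, to -0.38 without control replicate 2 and to -1.28 with knockout replicate 2 left out. A dimmer Gja5 probe, A_55_P2717381, was above background on 3 control and 1 knockout arrays and differed by -0.19 (SE 0.19). For Gja4 and the brighter Gja5 probe, control replicate 2 and knockout replicate 2 had the highest levels in their groups. Knockout replicate 1 had the lowest of all 6 arrays at both of these probes. At the dimmer Gja5 probe control replicate 3 was the highest control, and knockout replicate 3 had the lowest level. After group means were removed, the levels of Gja4 and Gja5 had a Pearson correlation of 0.955 over the 6 arrays, a description of 6 points that share array and scaling. The correlation of Gja4 with the epithelial Gjb1 was as close and opposite in sign (-0.988), and that of Gja5 with Gjb1 was -0.928.

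Gjc1, the connexin of vascular and visceral muscle, showed a small and even difference. Its levels (A_51_P138450) were 0.083, -0.16 and -0.30 in controls and -0.90, -0.74 and -0.58 in knockouts. All knockouts lay below all controls, with a difference of -0.61 (SE 0.17), 1.53-fold, and its SD of 0.19 and 0.16 within the groups was the smallest among the brightest tested probes of the 7 genes. Gjc3, a connexin of glial cells, had levels of -2.53, -1.88 and -1.69 in controls and of -2.53, -2.41 and -2.86 in knockouts (A_55_P2108948). Control replicate 1 lay within the knockout range, so the groups overlapped, and the difference was -0.57 (SE 0.26). Its second probe, A_55_P2914947, gave a signal above background on 2 control and 2 knockout arrays and was not tested.

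Gjb1, an epithelial connexin best known from hepatocytes, had the largest difference among the brightest tested probes. Its levels (A_55_P2096967) were -1.52, -3.20 and -1.80 in controls and 1.25, -0.68 and 0.22 in knockouts. All 3 knockouts lay above all 3 controls, by 2.44 on average (SE 0.60), a 5.42-fold higher signal. Control replicate 2 was the lowest and knockout replicate 1 the highest, and leaving them out in turn gave differences of 1.92 and 1.95. Gjb2, a connexin of many epithelia including skin and gut, had levels of -2.23, -0.86 and -1.88 in controls and of 0.25 and -1.04 in knockout replicates 2 and 3 (A_52_P382886). The spot of knockout replicate 1 was an outlier and was left out of the fit, which gave 1.26 (SE 0.54). With that spot kept the difference was 1.43, and with array weights it was 0.66. Control replicate 2, lowest for Gjb1, was the highest control for Gjb2 and lay above knockout replicate 3, so these epithelial genes did not order the control arrays alike.

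**Figure D2:**
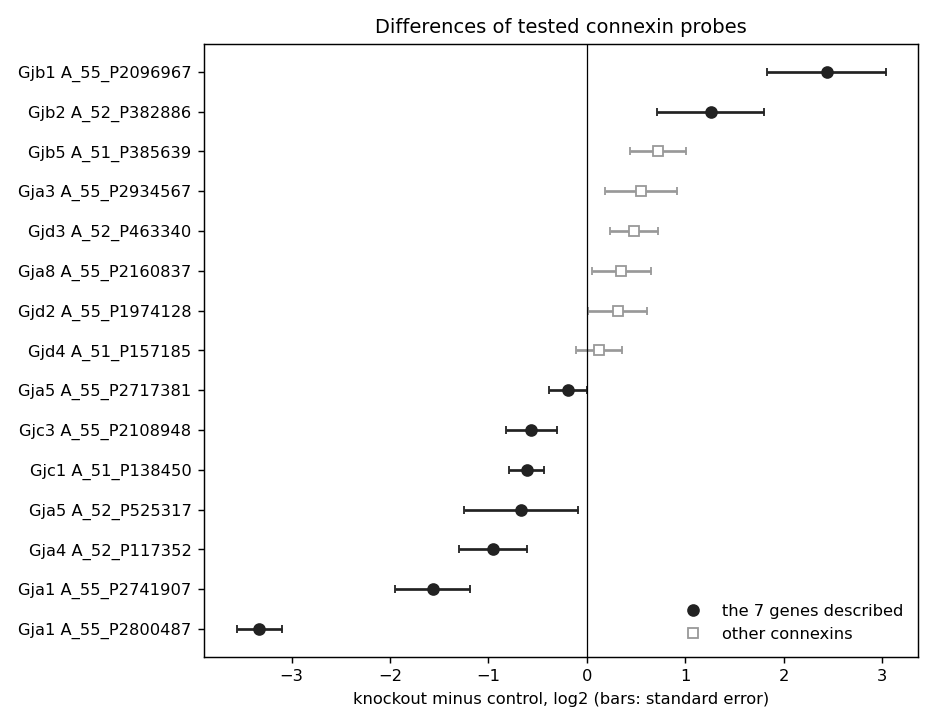
Knockout minus control on the log2 scale (horizontal axis) with standard errors for tested connexin probes (vertical axis). Filled circles are probes of the 7 genes and open squares other connexins; the Gjb probes lie above 0, while Gja1, Gja4, Gja5, Gjc1 and Gjc3 lie below.

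The rest of the family and the proteins around gap junctions were read from the same fit, 1 probe per gene. All 6 of the 10 other connexins considered that could be tested lay higher in the knockout, by 0.12 to 0.73 (median 0.42). None of them passed over all probes in limma (lowest adjusted p = 0.178), and 1 had an unadjusted p under 0.05, Gjb5. Without control replicate 1, 5 of 6 lay higher. Gjb5, which is expressed in stratified and other epithelia, is named here after its values were seen. Its levels were -1.83, -1.08 and -1.08 in controls and -0.59 and -0.62 in knockout replicates 2 and 3. The spot of knockout replicate 1 was an outlier, the usable knockouts lay above all controls, and the difference was 0.73 (SE 0.28, limma adjusted p = 0.178). Gja6, Gja10 and Gje1 were not well above background on any array.

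In the annotation Gjb2 lies between Gja3 and Gjb6 on chromosome 14, with 0 other protein-coding genes between them. Gjb2 lay higher by 1.26. Gja3, a lens connexin, differed by 0.55 (SE 0.37, limma adjusted p = 0.380), and Gjb6 could not be tested because its signal was well above background on at most 1 array of each group.

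Among 3 pannexins, channel proteins related in shape but not in sequence to connexins, 2 were tested and 0 called. Panx1 had levels of 1.32, 1.19 and 1.18 in controls and of 2.16, 1.6 and 1.54 in knockouts. All knockouts lay above all controls, with a difference of 0.54 (SE 0.20, limma adjusted p = 0.154). Of 20 proteins that bind, modify or transport connexins or form the junctions beside them, 16 were tested, 11 lay higher and 5 lower, and 0 were called in limma. An unadjusted p under 0.05 was reached by 6 of the 16 (37.5%), 5 of them higher, against 28.2% of all named genes and 26.8% of all probes. The kinase Src, which phosphorylates Gja1, had the lowest adjusted p of the partners and is named here after its values were seen. It differed by 0.88 (SE 0.20, limma adjusted p = 0.0610) at its brighter probe and by -0.02 at its dimmer one. It was the only one of these partners called without control replicate 1. The scaffold Tjp1, which binds the tail of Gja1, differed by 0.45 (SE 0.34, limma adjusted p = 0.448). Cdh1, the epithelial cadherin, had outlier spots on 5 arrays and was not tested; with them kept its levels were 1.94, -0.18 and 1.65 in controls and 2.72, 2.41 and 2.65 in knockouts. Over the pathway lists together, 0 of 24 genes were called, 8 had an unadjusted p under 0.05, and 7 were called with array weights, a setting that called 26.3% of all probes. The 7 were Gjd2, Ctnnd1, Dbn1, Mapk3, Prkca, Prkcd and Src.

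Levels of cell type markers on the same arrays are given beside the connexins. The mean level of 10 colon epithelium markers was 0.80 to 2.61 in controls and 2.81 to 3.17 in knockouts, without overlap. All 8 tested markers lay higher (median 1.00) and 0 were called in limma, with 1 at an unadjusted p under 0.05. The value of 0.80 was that of control replicate 2, the array on which Gjb1 and Cdh1 were lowest. Relative to this mean, Gjb1 was at -4.12, -4.00 and -4.00 in controls and at -1.92, -3.56 and -2.59 in knockouts. In controls Gjb1 thus kept an almost fixed distance from the epithelial markers (SD 0.071), and in knockouts it stood closer to them by 1.35. For Gjb2 the difference relative to these markers was 0.34, and the groups overlapped. Squamous epithelium markers, which would mark skin-like or anal lining, averaged -4.28 to -3.68 in controls and -3.90 to -2.72 in knockouts, with overlap. Of these 8 markers 5 were well above background on all arrays, and Dsg3 was so on none. Of the 6 tested, 5 lay higher and 1 lower (median 0.77), and 0 were called in limma. An unadjusted p under 0.05 was reached by 3 of them, against 28.2% of all named genes. Relative to the squamous mean, Gjb2 differed by 0.77 and Gjb5 by 0.47, with overlap for both. The part of the squamous markers in the Gjb values was not tested.

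The mean level of 10 endothelial markers was 0.10 to 0.31 in controls and -1.66 to -0.44 in knockouts, and all 9 tested lay lower (median -0.99, 0 called in limma, 8 at an unadjusted p under 0.05, as were 28.2% of all named genes). Relative to this mean, Gja4 differed by 0.16 and Gja5 by 0.44 between the groups, and the groups overlapped for both. The distance of Gja4 from this mean varied within the groups (SD 0.42 in controls and 0.26 in knockouts). Of 7 arterial genes 4 lay lower and 3 higher. In limma 6 of the 7 had an unadjusted p under 0.05, 4 of them lower and 2 higher, beside 28.2% of all named genes. Dll4, the Notch ligand of arterial endothelium, fell by 1.14 (SE 0.21, limma adjusted p = 0.0441). That call was lost without control replicate 2 or 3 and without knockout replicate 1 or 3 (limma adjusted p up to 0.133). It was lost without the filter on dim probes too (limma adjusted p = 0.0668). Higher in the knockout were Efnb2, an arterial ephrin, by 1.06 (SE 0.25, limma adjusted p = 0.0831) and Bmx by 1.07 (SE 0.24, limma adjusted p = 0.0563). The mean level of the arterial list overlapped between the groups, at -0.99 to -0.64 in controls and -1.21 to -0.94 in knockouts. Relative to this arterial mean, Gja4 differed by -0.73 and Gja5 by -0.45, with overlap for both. These differences are opposite in sign to those relative to the endothelial mean.

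Fibroblast markers averaged 2.20 to 2.36 in controls and 1.21 to 1.86 in knockouts, and all 8 tested lay lower (median -0.52). The platelet-derived growth factor receptor gene Pdgfrb was the called member (-1.17, SE 0.20, limma adjusted p = 0.0395), and its call did not hold without the filter on dim probes (adjusted p = 0.06) or in any fit on 5 arrays (0.0504 to 0.111). Relative to the fibroblast mean, the brightest Gja1 probe was at -1.11, -1.10 and -1.37 in controls and at -2.98, -2.41 and -2.26 in knockouts, a difference of -1.35 with no overlap. This probe stands for Gja1 beside all marker lists. It was not tested because most of its spots were outlier spots, which are kept here. At this probe the distance of Gja1 from the fibroblast markers was wider in the knockout, whereas Gjc1 differed by 0.038 relative to them. The tested Gja1 probe A_55_P2741907 had a smaller difference between the groups, -1.57 beside -2.0. Its distance from the markers was not computed. Smooth muscle markers averaged 2.23 to 2.51 in controls and 2.68 to 2.82 in knockouts, all 8 tested lying higher (median 0.36, 0 called in limma, 2 at an unadjusted p under 0.05). Relative to them Gja1 differed by -2.41 and Gjc1 by -1.01, with no overlap for either gene. Enteric glia markers averaged -1.58 to -1.43 in controls and -2.86 to -1.94 in knockouts, and Gjc3 relative to them differed by 0.29 with overlap. Macrophages also carry Gja1, and their markers averaged 0.88 to 1.67 in controls and -0.027 to 0.65 in knockouts. Neutrophil markers averaged -0.24 to 0.12 in controls and -3.10 to -2.32 in knockouts. Ngp was not well above background on any array, and Csf3r differed by 0.17 and was not called. Over all named genes tested, 628 of 16451 were called, 406 of them lower. Of the neutrophil markers tested, 5 of 6 were called, all lower. Of these, Retnlg, S100a8, S100a9 and Cxcr2 lost their calls without knockout replicate 3 and Mmp8 without control replicate 2 (highest adjusted p in these fits 0.0609), and S100a9 and Cxcr2 did so also without control replicate 2 or 3 (adjusted p up to 0.0673). Cxcr2 lost its call without knockout replicate 1 too (limma adjusted p = 0.0505), and S100a8 and Retnlg could not be fitted without control replicate 2 or 3. The S100a8 call was lost without the filter on dim probes as well (limma adjusted p = 0.0524). What part these cell types have in the connexin values was not tested.

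**Figure D3:**
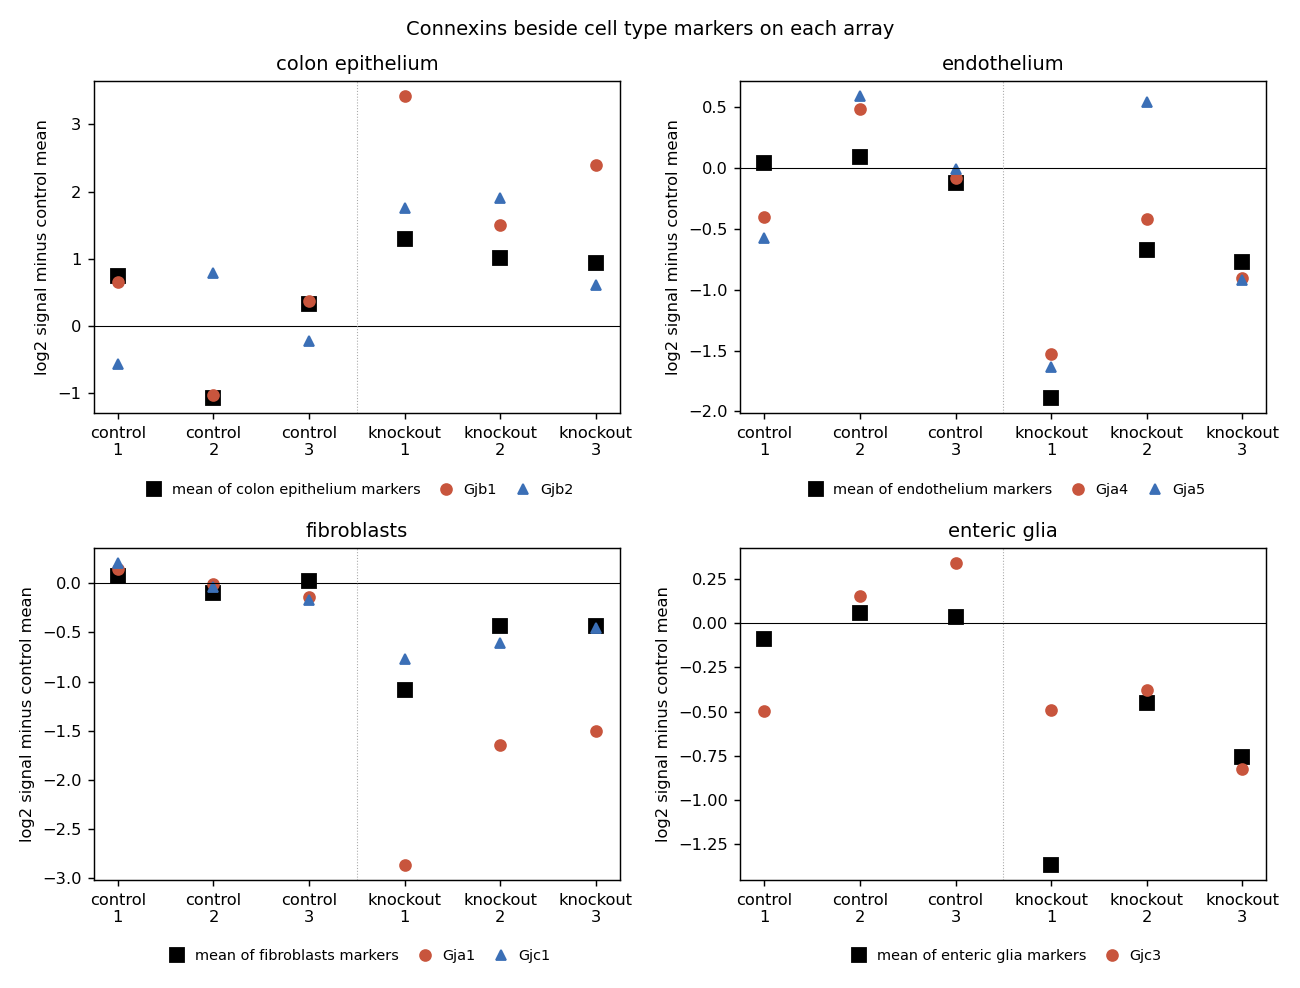
Levels on each array (horizontal axis) of connexins and of the mean over marker genes of a cell type, as log2 signal minus the control mean (vertical axis), outlier spots kept. Gjb1 follows the epithelial markers in the 3 controls and stands above them in the 3 knockouts. In each group Gja4 lies above the endothelial markers on some arrays and below them on others. Gja1, at its brightest probe, lies below the fibroblast markers in all knockouts.

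The genes whose levels over the 6 arrays were most like those of each connexin were sought among 23967 named probes well above background on all arrays. With 6 points and that many probes, correlations near 1 are found for every gene, and the names describe these arrays only. For Gja1 (brightest probe) they were Olfm1, Man1c1 and Vcan, the gene of the matrix proteoglycan versican (Pearson r of 0.999 each). For Gja4 they were Dmtn, Pcbp3 and Gm3383 (0.994 to 0.999), and for Gja5 Car15, 2010204K13Rik and Mphosph9 (0.992 to 0.995). For Gjc1 they were Lama2, which encodes a laminin chain of basement membranes, Rsph9 and Tmem45a (0.996 to 0.997), and for Gjc3 Bysl, Hsph1 and Haus1 (0.993 to 0.996). For Gjb1 they included Zzef1 (1.0) and Cycs (0.999), and for Gjb2 Setd4, 4930590J08Rik and Aqp6 (0.970 to 0.977). None of the 7 connexins was among the 3 genes most like another.

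**Figure D4:**
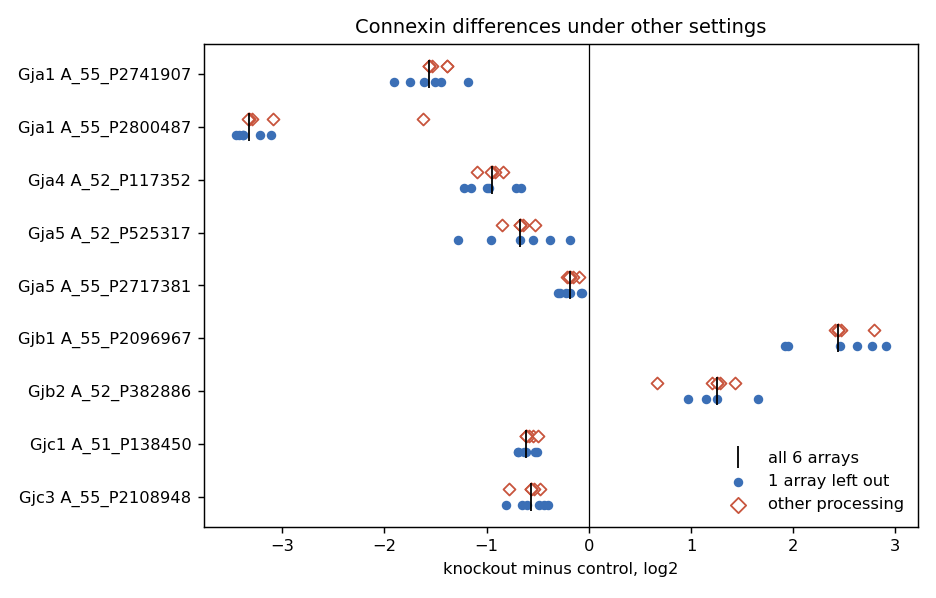
Knockout minus control on the log2 scale (horizontal axis) for the 9 tested connexin probes (vertical axis) with all 6 arrays, with 1 array left out and under 6 other ways of processing. Every value stays on the same side of 0; the Gja1 probe A_55_P2800487 is nearer to 0 (-1.62) under normexp with quantile normalization, and the dimmer Gja5 probe comes closest to 0 (-0.064) without control replicate 3.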

How the data were processed

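Intensities were used: the deposited processed signal of each spot, per the file headers, is background-subtracted and detrended within the array by Agilent Feature Extraction 11.5.1.1 and unscaled between arrays. The submitters' processing notes name version 10.7, and the labels name Cy3 and a green column, whereas the files hold the red channel. Signals were taken as log2 relative to the array's 75th percentile over 59305 non-control spots. Non-uniform and population outlier spots were set to missing. Probes were tested where a group's arrays all gave a signal well above background and each group kept 2 usable values (35351 of 56605). The test was limma 3.58.1 in R 4.3.3, genotype as the only term, two-sided, Benjamini-Hochberg adjusted. The fit was also run on simulated data with independent noise for each probe. Effects shared by the probes of an array were not simulated, so that run cannot speak to them. Precision is limited by the number of arrays, 3 per group. RefSeq accessions, named through GRCm38.p6, gave symbols for 33767 probes; the files' build is mm9, so no probe coordinates are given. The deposited value table held the same intensities (log2 correlation of at least 0.999999).

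The named genes are all probes of the 7 connexins, the called genes of the pathway lists with Tjp1, Panx1 and Cdh1, Islr, and the 3 genes most like each connexin. Gjb5 and Src were added after their values were seen. A few genes of these lists are not reported here, and all list counts leave them out. The 7 genes and all lists were chosen with earlier results of these data known. Marker levels are means of log2 values of each gene's brightest probe with outlier spots kept. Alternatives were normexp background correction (offset 50) with quantile normalization, median centring, outlier spots kept, no filter on dim probes, array weights, the value table, and each array left out.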

Additional observations from a re-analysis of the deposited data

How the results depend on the processing

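Over all probes 1403 were called. The count was 2773 under normexp with quantile normalization, 2249 under median centring, 484 without the filter on dim probes and 9292 with array weights, and 40 to 2114 with 1 array left out. Connexin probes called numbered 2 instead of 1 under normexp with quantile normalization, median centring and outlier spots kept, and 6 with array weights. The added calls were further Gja1 probes, and with array weights also Gja4, Gjb1, Gjc1 and Gjc3. With 1 array left out, the count was 1 each time. The call was always A_55_P2800487, the Gja1 probe by which the genes were chosen. Its knockout signals were not well above background, so nothing is read from its staying called. Of the pathway genes 7 instead of 0 were called with array weights, and 0 to 1 with 1 array left out. The median over the 7 genes ranged from -0.94 to -0.49 with 1 array left out. Of 106 connexin values under these alternatives 105 moved by less than the SD within groups. The exception was the Gja1 probe A_55_P2800487 under normexp with quantile normalization (-1.62). Leaving out 1 of a group's 3 arrays cannot move a difference by as much as that SD. For those fits the count is therefore no measure of stability. It includes the brighter Gja5 probe, which went from -0.67 to -0.19 without knockout replicate 1. Scaling to the median moved the median of all probes by 0.024. Gjb2 could not be fitted without knockout replicate 2 or 3. All 6 files carry the same scan time. No paired analysis was possible because the labels give no replicate numbers shared between the groups. A signal had to reach 116.5 to 122.5 intensity units, depending on the array, to be well above background, which limits the dim Gja1, Gja5 and Gjc3 probes.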
